A study of Mus musculus with 12 samples.

Results

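The transcriptome of the tibialis anterior, the muscle at the front of the shin that lifts the foot, was described in the 6 control mice of a series of 12 mice aged 6 weeks. The other mice of the series lacked Smyd1 in their muscle fibres and were not compared here. The controls carried the genotype Myf6 cre/+; Smyd1 flox/+ on the strain background C57BL6/J;129S1/SvImJ and, per the study's methods, 1 copy of a Rosa26 YFP reporter. They were therefore not wild type. Cre is made from the Myf6 transcript of muscle fibres from shortly before birth, so that myofibres were left with 1 working copy of Smyd1, a lysine methyltransferase of striated muscle. Total RNA of the whole muscle was depleted of ribosomal RNA and sequenced as 1 library per mouse. The baseline gene set held every gene with an FPKM (a read count scaled to the length of the transcript and the size of the library) of at least 1 in all 6 controls, which was 6505 of 23923 genes or 27.2%. Values below are mean FPKM ± SD over 6 mice unless another measure is named.

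The tibialis anterior of the mouse is built almost wholly of fast-twitch fibres. Myosin thick filaments pull on actin thin filaments when calcium, released from the sarcoplasmic reticulum, binds troponin on the thin filament. Nearly every protein of this machine comes in a fast and a slow isoform from separate genes, so that isoform ratios read the fibre type of a muscle. Fast fibres regenerate ATP mainly from phosphocreatine and glycogen, and they clear calcium quickly with a fast calcium pump and the soluble buffer parvalbumin.

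Sequencing depth was read from the steps between low FPKM values and came to about 10800000 fragments in control 1 and 16600000 in control 6, the shallowest and deepest libraries. The members held between 96.1% and 96.9% of the FPKM sum of a library. Log2 FPKM of the members correlated between any pair of libraries at r between 0.945 and 0.982. Control 1 stood apart: its correlations with the other 5 libraries reached at most 0.959, whereas the other libraries correlated among themselves at 0.968 or more. It also held the highest value of the 6 mice for 3290 members, 50.6% of them. The FPKM sum over all genes was 156610 in control 1 and 110120 to 133320 in the other 5. FPKM values and their sums below carry this difference in the sum, whereas shares do not. Other differences of control 1 remain in the shares. Where control 1 sets a value, the value without it is given. No member count below compares groups of mice, so no gene was tested between conditions.

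The tissue label held. All 8 myofibre markers were members, and their summed FPKM ran from 19927 to 31715. Defining genes of heart and skin were near 0: the natriuretic peptides Nppa and Nppb of the heart were listed at 0 in all 6 mice, as was the epidermal keratin Krt5, and the 5 epidermal genes together reached at most 0.278 FPKM. The Y-linked genes Ddx3y (18.6 ± 2.61 FPKM) and Eif2s3y (15.7 ± 1.51) were present in every mouse, while Xist, the RNA that silences an X chromosome in females, reached at most 0.109 FPKM. Smyd1 itself stood at 47.1, 33.4, 41.1, 32.9, 33.8 and 36.1 FPKM in controls 1 to 6, and Myf6, the gene that drives Cre, at 13.6 ± 5.2 FPKM with its highest value, 21.9, in control 1.

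A few contractile genes dominated the transcriptome. The gene with the highest mean, Tnnt3, encodes the fast troponin T that ties troponin to tropomyosin and stood at 7007, 4501, 6204, 5801, 5595 and 4867 FPKM in controls 1 to 6 (5662 ± 906). It was followed by Tpm1, the fast alpha tropomyosin, at 5258 ± 1026 FPKM and by Mylpf, the fast regulatory myosin light chain, at 5178 ± 1651 FPKM. The order of these 3 genes did not exceed the spread between mice. In control 1 it was Mylpf that ranked highest, at 8321 FPKM against 3476 to 5197 FPKM in the other 5. Tnnc2 (fast troponin C, the calcium sensor, 4936 ± 872), Acta1 (skeletal alpha actin, 4604 ± 370) and Ckm (muscle creatine kinase, 4292 ± 1029) came next, and here too the ranges overlapped. Acta1 was the steadiest of the 10 highest genes, with a coefficient of variation (CV, SD over mean) of 8.03% and values from 4019 to 4982 FPKM.

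**Figure D1:**
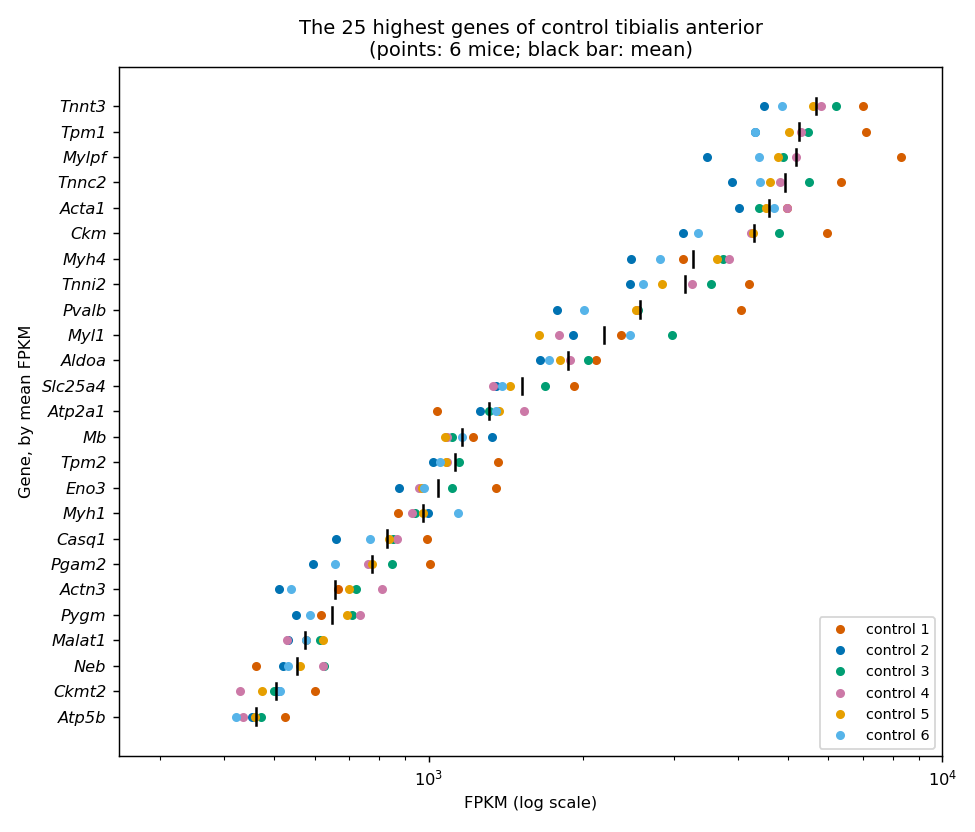
The 25 genes with the highest mean FPKM in control tibialis anterior, on a log axis of FPKM. Points are the 6 mice and black bars their means, and genes next to one another in the order overlap. Tnnt3 leads at a mean of 5662 FPKM and Atp5b closes the list at 461 FPKM.

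Below these came Myh4 (3273 ± 553), the myosin heavy chain of IIb fibres, Tnni2 (3157 ± 653), the fast inhibitory troponin, and Pvalb (2578 ± 793), the calcium buffer parvalbumin. Of the 25 highest genes 24 encode proteins of contraction, oxygen storage, energy supply or calcium handling. The exception was Malat1, a long non-coding RNA of the nucleus, at 576 ± 39.3 FPKM. Only 16 members had a mean of 1000 FPKM or more and 119 a mean of 100 or more, while the median of the members' means was 4.09 FPKM. Tnnt3 held 4.61 ± 0.26% of the member FPKM sum of a library, the 10 genes highest by mean 33.4 ± 1.99% and the 100 highest by mean 56.8 ± 1.1%. On the mean profile 46 genes held 50% of the sum, whereas 90% took 2395 genes. The 10 genes held least in control 2, at 30.2%, and most in control 1, at 35.4%.

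Shares of the FPKM sum were then taken for lists of contractile, metabolic and calcium-handling genes. The 58 contractile members of 71 listed genes held 34.3 ± 1.05% (32.5% to 35.6%), the 181 metabolic members of 203 held 18.8 ± 0.377% (18.2% to 19.2%) and the 47 calcium-handling members of 55 held 5.03 ± 0.249% (4.73% to 5.37%). Together these 286 genes, few among 6505, held 58.1 ± 1.05%. The order of the 3 classes was the same in every mouse and their ranges lay far apart. FPKM are scaled to transcript length and library total, so these are shares of transcript number and not of RNA mass. They are shares of 1 whole, in which a rise of some genes lowers the share of all others.

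**Figure D2:**
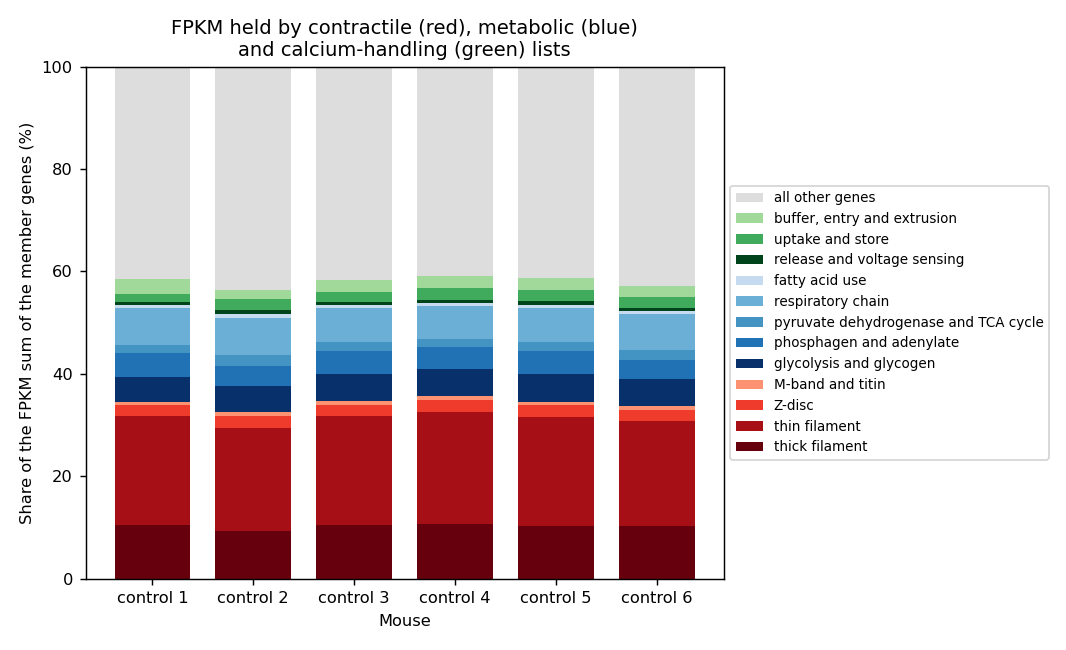
Stacked bars of the share of the member FPKM sum (%) held in each mouse by contractile (red), metabolic (blue) and calcium-handling (green) lists, with all other genes in grey. The bars are alike in the 6 mice: the coloured part reaches 56.5% to 59.2%, of which 32.5% to 35.6% is contractile.

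Within the contractile class thin-filament genes outweighed thick-filament genes. The 15 thin-filament members held 21.0 ± 0.679% of the sum and the 13 thick-filament members 10.2 ± 0.50%. The 20 Z-disc members held 2.34 ± 0.0784%. The 10 members of the list for the M-band and titin held 0.636 ± 0.0576%, without the titin gene Ttn, which was no member. In the thick filament Myh4, Mylpf and Myl1 (the fast essential light chain, 2194 ± 503 FPKM) supplied 84.5% of the list. Myh4 made up 75 ± 4.85% of all myosin heavy chain FPKM, Myh1 (IIx fibres) 22.8 ± 3.95% and Myh2 (IIa fibres) 2.02 ± 1.23%. The share of Myh4 was lowest in control 2, at 68.3%, and highest in control 4, at 79.6%. Myh7, the heavy chain of slow type I fibres, held 0.018% on average. The perinatal chain Myh8 (5.15 ± 1.79 FPKM) and the extraocular chain Myh13 (2.14 ± 0.412) were members, whereas the embryonic chain Myh3 fell below 1 FPKM in 5 of the mice (0.551 to 1.81). Myh3, Myh2, Myh1, Myh4, Myh8 and Myh13 lie in a row on chromosome 11, and since reads that matched several places were discarded, stretches shared by these close relatives are undercounted to an unknown degree.

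Of the adult fast heavy chains Myh1 varied least between mice and Myh2 most. Myh1 stood at 873, 995, 939, 926, 976 and 1139 FPKM in controls 1 to 6, a CV of 9.33%. Myh2 stood at 111, 151, 59.7, 45.8, 52.0 and 79.8 FPKM, a CV of 48.9%. Myh4 was low where Myh2 was high: 3123, 2482, 3744, 3837, 3638 and 2816 FPKM. Across the 6 mice the log2 values of Myh2 and Myh4 correlated at r = -0.90, a description of 6 points that share their library totals. In bulk tissue a larger number of IIa fibres and more Myh2 RNA in each fibre cannot be told apart.

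In a comparison of profiles made after the values of Myh2 had been seen, the gene whose log2 profile over the 6 mice was most like that of Myh2 was Mb, which encodes the oxygen store myoglobin (r = 0.98), at 1218, 1327, 1112, 1088, 1075 and 1159 FPKM. The next genes by likeness were Daglb (r = 0.98), Vac14 (0.98), Snd1 (0.97) and Klhl34 (0.96), so 6 mice do not set Mb apart from other genes. Mb moved far less than Myh2, with a CV of 8.24%. A number of other genes known from slow, oxidative or stretched muscle were also high in controls 1, 2 and 6 and low in controls 3, 4 and 5. They were picked after their values had been seen. Csrp3, a muscle LIM protein of the Z-disc, stood at 147, 50.3, 15.3, 5.90, 11.1 and 20.5 FPKM. Ankrd2, an ankyrin repeat protein of slow fibres that answers stretch, followed it closely at 109, 42.0, 16.7, 7.44, 11.6 and 22.0 FPKM. Fhl1 (116 to 444 FPKM), the Z-disc alpha-actinin Actn2 (144 to 236), the slow calsequestrin Casq2 (7.96 to 17.1) and the imprinted non-coding RNA H19 (176 to 417) had the same 3 mice on top. Without control 1, which stood apart from the other libraries, the CV of Csrp3 was 84.5% instead of 129%, and controls 2 and 6 remained its highest values.

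In the thin filament the fast isoforms stood far above the slow ones. Besides Tnnt3, Tpm1, Tnnc2, Acta1 and Tnni2 the list held Tpm2 (beta tropomyosin, 1124 ± 124), Neb (nebulin, the ruler of the thin filament, 554 ± 63.4) and Nrap (162 ± 12.3). Actc1, the cardiac and fetal alpha actin, was kept at 186 ± 53.3 FPKM in the adult muscle, between 18.1- and 43.5-fold below Acta1. The genes of fast troponin I and troponin T, Tnni2 and Tnnt3, are neighbours on chromosome 7 with Lsp1 between them. Lmod2, a leiomodin that nucleates actin, was the most variable member of the list: it stood at 57.7 FPKM in control 2 and 36.8 in control 6, against 17.1 to 26.8 in the other mice.

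Z-disc genes were led by Actn3, the fast alpha-actinin, at 659 ± 114 FPKM and by Tcap, the titin cap, at 459 ± 62.1 FPKM, followed by Myot (myotilin, 273 ± 45.3) and Myoz1 (fast calsarcin, 258 ± 36.4). Des, the intermediate filament desmin that links neighbouring Z-discs, was steady at 225 ± 18.4 FPKM. In the list for the M-band and titin Xirp2 (249 ± 21.5), Myom2 (174 ± 17.2) and Myom1 (160 ± 16.6) supplied 75.5% of the FPKM of its 10 members. Ttn, which encodes titin, was listed at 640, 806 and 871 FPKM in controls 1, 2 and 4 and at 0 in controls 3, 5 and 6. It therefore was no member, and its FPKM enter none of the shares given here. Whether the RNA was absent where it was listed at 0 was not tested. Snora21 and Snord57 were the other genes listed at 0 in a control and at 10 FPKM or more in another.

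Fast and slow isoforms were next set against each other in 14 gene pairs, by their ratio of FPKM in each mouse. Myh7 was the slow gene for each of Myh4, Myh1 and Myh2. The fast gene was above the slow one in every mouse for 13 pairs. The mean log2 ratio had a median of 9.17 over the pairs, with 10 pairs past 100-fold and 7 past 1000-fold. The highest geometric means were 10916-fold for the troponin I pair Tnni2 over Tnni1, 6187-fold for Myh4 over Myh7 (1702- to 17812-fold) and 5260-fold for the troponin C pair Tnnc2 over Tnnc1. Tnnt3 over Tnnt1 gave 1743-fold, and Mylpf exceeded the slow light chain Myl2 by 448- to 4698-fold. The calcium pump gene Atp2a1 (SERCA1) stood 247-fold above the slow Atp2a2, and the calcium store protein Casq1 65.4-fold above Casq2. The slow genes behind the largest ratios rest on very few fragments. For Tnni1 between 2 and 11 fragments were estimated per library, and with 3 in control 1 the counting interval of its ratio (15723-fold) ran from 5380 to 76240. These intervals are exact 95% Poisson intervals and cover counting error only.

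The Z-disc and binding-protein pairs were far less one-sided than myosin and troponin. Actn3 exceeded Actn2 by only 2.27- to 5.65-fold and Myoz1 exceeded Myoz2 by 10.1- to 29.9-fold. For myosin-binding protein C the fast Mybpc2 (386 ± 65.8 FPKM) and the slow Mybpc1 (382 ± 23.4) were level. Mybpc1 stood at 392, 389, 413, 387, 346 and 364 FPKM in controls 1 to 6 and Mybpc2 at 439, 299, 413, 459, 394 and 314, so that the ratio lay on either side of 1 (0.769 to 1.19). Mybpc1, named for slow muscle, was also the steadiest thick-filament gene, at a CV of 6.14%. Bulk tissue does not tell whether Actn2 and Mybpc1 were confined to slow fibres, so their ratios need not read fibre type.

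**Figure D3:**
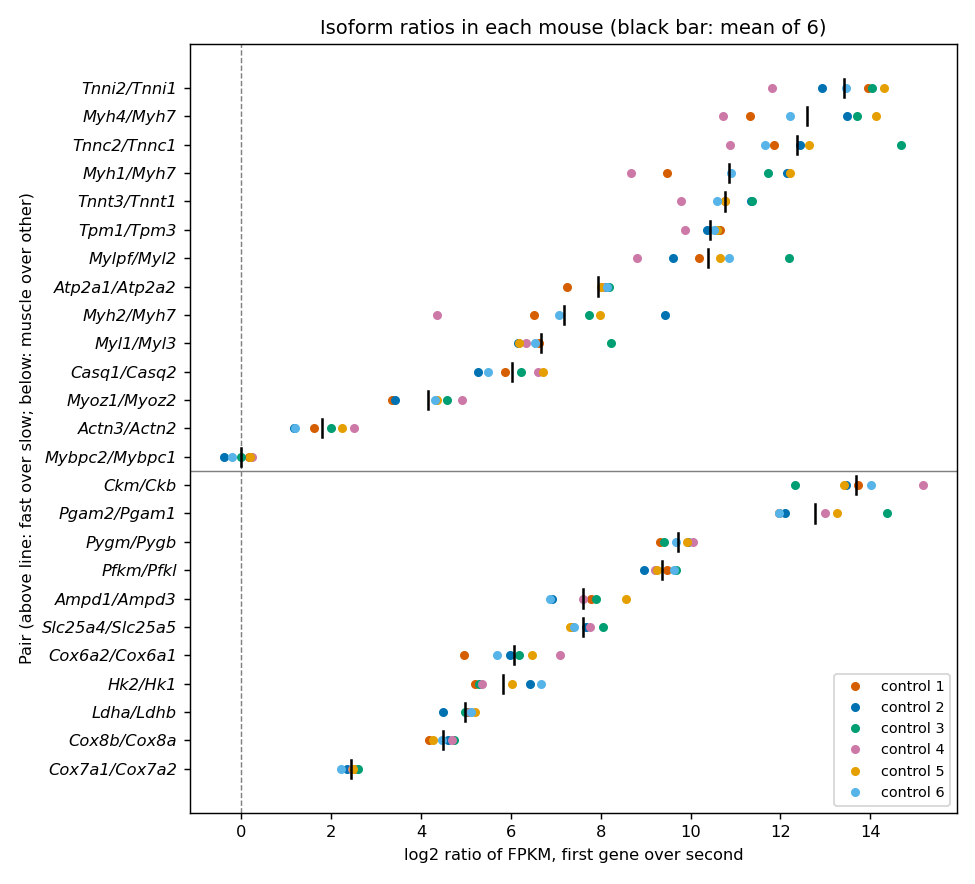
Log2 ratio of FPKM in each mouse (points) and its mean (black bars) for 14 fast over slow pairs above the line and 11 pairs of muscle over other isoforms below it. All pairs but Mybpc2/Mybpc1, whose mean is 0.00, lie above 0 in every mouse, and the mean of Tnni2/Tnni1 is 13.4.

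Several slow genes were highest in the same mouse. A slow index, the mean log2 of slow over fast gene across the 14 pairs, was highest in control 4 (-7.40) and lowest in control 3 (-8.95). Control 4 had the most slow-sided ratio in 8 of 14 pairs. It had the least slow-sided ratio in 3, namely Myoz1 over Myoz2, Actn3 over Actn2 and Mybpc2 over Mybpc1. The pairs are not separate readings, since those of Myh4, Myh1 and Myh2 all use Myh7 as the slow gene. Each of these was most slow-sided in control 4, and Myh7 weighs more in the index than other slow genes. Myh7 was estimated at 80, 16, 23, 160, 17 and 60 fragments in controls 1 to 6, and the exact Poisson interval of control 4 (136 to 187) lay above those of all others. The slow troponin Tnnt1 stood at 4.01, 1.74, 2.36, 6.61, 3.22 and 3.14 FPKM and Myl2 at 7.16, 4.43, 1.04, 11.6, 2.99 and 2.37 FPKM, both highest in control 4 and next highest in control 1. The Csrp3 and Myh2 profile was a different one, with control 4 at or near the bottom. By rank of likeness to Tnnt1 over all members the nearest genes were Eif3b (r = 0.98), a translation initiation factor subunit, Epm2aip1 (0.96), Cog8 (0.95), Wbp1l (0.95) and 2310035C23Rik (0.94), none of them a contractile gene. Myl2 (r = 0.65) came at place 411, so 6 mice do not set slow genes apart from unrelated ones.

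The slow index was set against 5 measures over the 6 mice and 2 more pairs of measures were compared, 7 relations in all. None passed an exact two-sided permutation test over 720 pairings after Benjamini-Hochberg adjustment (smallest adjusted p 0.802 for Pearson's r and 0.520 for Spearman's rho). The strongest was the share of respiratory chain genes against that of glycolysis, at r = -0.65 (exact permutation p = 0.157, adjusted p = 0.802) and rho = -0.71 (p = 0.136, adjusted p = 0.520). Both are shares of the same sum. It kept its sign without controls 2 and 4, the mice farthest from the median (r = -0.96). The slow index correlated with the glycolysis share at r = -0.48 (exact permutation p = 0.369, adjusted p = 0.854), with relative depth at r = -0.36 (p = 0.499, adjusted p = 0.854), with fibroblast markers at r = 0.29 (p = 0.611, adjusted p = 0.854) and with developmental isoforms at r = 0.18 (p = 0.732, adjusted p = 0.854). Their rho were -0.54, -0.54, 0.14 and 0.14 (exact permutation p = 0.297, 0.297, 0.803 and 0.803, adjusted p = 0.520, 0.520, 0.937 and 0.937), and without controls 3 and 4 their r were -0.86, -0.22, 0.69 and 0.91. For the slow index against the respiratory chain share r was -0.09 (exact permutation p = 0.860, adjusted p = 0.860; rho = -0.03, p = 1) and turned to 0.57 without controls 3 and 4.

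The metabolic gene with the highest level was Ckm. This enzyme, which recharges ATP from phosphocreatine, had 5960, 3128, 4804, 4241, 4272 and 3349 FPKM and held 81.5% of the phosphagen and adenylate list. Its mitochondrial partner Ckmt2 stood at 505 ± 56.2 FPKM, Ak1 (adenylate kinase) at 249 ± 22.2 and Ampd1 (AMP deaminase) at 111 ± 16.3. The brain isoform Ckb reached at most 0.943 FPKM and the other mitochondrial isoform Ckmt1 was listed at 0 in all 6. Adssl1, the muscle adenylosuccinate synthase of the purine nucleotide cycle, had one of the lowest CV in FPKM as deposited, at 92.4 ± 3.66 FPKM. After scaling each library by its median ratio its CV was 12.4%, against a median of 14.8% for all members.

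Glycolytic genes were led by Aldoa (aldolase A, 1868 ± 184), Eno3 (muscle enolase, 1042 ± 171), Pgam2 (muscle phosphoglycerate mutase, 774 ± 144) and Pygm (muscle glycogen phosphorylase, 650 ± 73.9). The rate-setting Pfkm (muscle phosphofructokinase) was steady, at 390, 367, 418, 405, 392 and 386 FPKM, a CV of 4.34%. So were Gys1 (glycogen synthase, 32.3 ± 1.70) and Pkm (pyruvate kinase, 279 ± 16.5). The 30 members of 38 genes held 5.22 ± 0.193% of the sum, and 19 of the 37 genes above 0 in all mice were lowest in control 2, which held the lowest value for 33.5% of all members. Some enzymes with near-identical copies elsewhere in the genome were low: Gapdh was listed at only 2.90 ± 0.298 FPKM, Pgk1 at 8.36 ± 1.57 and Eno1 at 6.29e-05 ± 5.64e-06. Reads that match several places had been discarded, so these values are uncertain, and the part of that step in them was not tested. Isoforms best known from other tissues were low too, such as Aldoc (0.0435 ± 0.0236), Pfkl (0.602 ± 0.101) and Pygb (0.784 ± 0.185). Hk2, the hexokinase that commits glucose, stood at 45.6 to 53.6 FPKM in 5 mice and at 94.3 FPKM in control 6.

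Muscle and other isoforms of the same enzyme were compared in 12 pairs. Of these 11 gave a ratio, and the muscle form was higher in every mouse in all 11, with a median mean log2 ratio of 7.60. The ratio was widest for Ckm over Ckb, 5096- to 36743-fold, the highest resting on an estimated 2 fragments of Ckb (exact 95% counting interval 10171 to 3.03e+05). Pygm exceeded Pygb by 640- to 1070-fold and Pfkm exceeded Pfkl by 502- to 814-fold. It was narrowest for the cytochrome oxidase subunits Cox7a1 over Cox7a2, at 4.66- to 6.01-fold. The lactate dehydrogenase ratio Ldha over Ldhb was 31.6-fold, and control 2 with 22.6-fold was the lowest. Eno1 and Pgam1 have near-identical copies, so Eno3 over Eno1 was left out and Pgam2 over Pgam1 (7022-fold) is uncertain.

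Mitochondrial genes were individually lower but many. The 79 respiratory chain and associated members held 6.91 ± 0.383%, more than the glycolysis list in every mouse. Slc25a4 (the muscle ADP/ATP carrier, 1521 ± 232) alone supplied 18.0% of the list. The order of the lists depends on the genes put in each. It also depends on the uncertain values of Gapdh and Pgk1 in the glycolysis list, and their part was not tested. ATP synthase subunits Atp5b (461 ± 36.1) and Atp5a1 (314 ± 25.7) followed. Pyruvate dehydrogenase and citric acid cycle genes held 1.78 ± 0.177% in 35 members and fatty acid genes 0.605 ± 0.0790% in 29. Variation differed among genes of the citric acid cycle and related enzymes. Sdha (succinate dehydrogenase) stood at 139 ± 6.41, Idh3g at 77.8 ± 2.21 and Cs (citrate synthase) at 101 ± 6.15, whereas Sdhb (101 to 160 FPKM) had a CV of 18.0% and Idh1 of 30.5%, or 7.95% and 8.2% without control 1. The regulator Pdk4, a kinase that shuts pyruvate dehydrogenase in fasting, was the most variable of the list: 53.5, 140, 25.2, 66.7, 54.7 and 57.6 FPKM. Fatty acid genes were led by Cd36 (fatty acid uptake, 68.4 ± 15.4), Acadvl (66.9 ± 5.80) and Etfb (63.0 ± 11.7), and 14 of the 33 genes above 0 in all mice were lowest in control 4, against 16% of all members.

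In control 1 the respiratory chain was high. For 72 of 81 genes above 0 in all mice control 1 was highest, against 50.6% of all members. The list summed to 10972 FPKM against 7629 to 8630 in the other mice, or 1.38-fold their mean. The same ratio was 1.31-fold for thin-filament, 1.45-fold for phosphagen and adenylate and 0.966-fold for calcium uptake and store genes. Ndufv1 did not follow: this gene of a catalytic subunit of complex I stood at 93.6 FPKM in control 1 and 91.9 to 96.0 in the others. As a share of the sum the respiratory chain of control 1 lay within the range of the 6 mice, 6.36% to 7.39%.

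Calcium handling was carried by 3 genes. Pvalb, Atp2a1 and Casq1 supplied 76.4% of the class. Pvalb stood at 4055, 1779, 2551, 2541, 2534 and 2009 FPKM and held 89.6% of the list for buffers, entry and extrusion. Atp2a1 stood at 1038, 1258, 1308, 1531, 1373 and 1352 FPKM and was lowest where Pvalb was highest, in control 1. Casq1, the calcium store protein of fast fibres, stood at 830 ± 111 FPKM. Other store and uptake genes were Hrc (142 ± 8.39), Srl (sarcalumenin, 139 ± 15.8), the reticulum chaperone Calr (28.4 ± 8.97) and 2310015B20Rik, the symbol under which the pump inhibitor myoregulin was annotated (17.3 ± 3.85). The pump inhibitors of slow and cardiac muscle were low: Pln (phospholamban) stood at 1.87 to 5.31 FPKM, and Sln (sarcolipin) at 0.328 to 1.12 in 5 mice and 5.69 in control 1.

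Release genes were lower than Pvalb and Atp2a1. Trdn (triadin) led at 171 ± 23.0 FPKM, followed by Tmem38a (a potassium channel of the reticulum, 121 ± 13.5) and Ryr1, the release channel. Ryr1 stood at 59.2, 111, 96.2, 137, 112 and 121 FPKM, lowest in control 1. The voltage sensor subunits were near one another, with Cacna1s at 57.1 ± 7.55, Cacna2d1 at 52.5 ± 5.29 and Cacng1 at 30.5 ± 3.01, and Cacnb1 was at 18.8 ± 1.33. Ryr3, the isoform of young muscle, reached at most 0.0428 FPKM. Calcium entry and extrusion genes were low by comparison: the store sensor Stim1 stood at 13.9 ± 0.685, the exchanger Slc8a3 at 7.56 ± 0.476, the pump Atp2b1 at 8.23 ± 0.671 and the entry channel Orai1 at 1.65 ± 0.401 FPKM. Of the calmodulin kinases Camk2g (22.4 ± 1.55) and Camk2a (19.5 ± 1.67) were highest.

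Genes of other cell types were present at levels far below those of the fibres. Fibroblast markers summed to 900 FPKM in control 1 and to 236 to 302 in the other 5 mice. All 9 genes were highest in control 1, against 50.6% of all members. Col3a1, a fibrillar collagen, stood at 282 FPKM in control 1 and 60.8 to 69.1 in the others. Tendon markers (60.4 against 18.2 to 31.3 FPKM, 8 of 8 genes highest) and macrophage and leukocyte markers (30.5 against 8.15 to 12.2, 7 of 8) went the same way. The adipocyte list (308 against 94.7 to 171) was almost wholly Fabp4, which endothelium also expresses, while adiponectin (Adipoq) reached at most 0.531 FPKM in any mouse. Endothelial markers did not follow: they summed to 39.5 FPKM in control 1 and 38.8 to 51.5 in the others, with Pecam1 at 9.62 ± 0.550. Smooth muscle and pericyte markers summed to 90.6 FPKM in control 1 and 52.5 to 74.7 in the others. Schwann cell markers summed to 11.9 to 16.6 FPKM. Satellite cell markers summed to 2.19 to 3.87 FPKM, with Pax7, the defining transcription factor of muscle stem cells, at 0.228 ± 0.114. The first of the haemoglobin alpha genes, Hba-a1, stood at 36.9, 31.5, 12.7, 12.5, 9.47 and 29.7 FPKM, again with controls 1, 2 and 6 on top as for Myh2, and the near-identical Hba-a2 at 0.0282 ± 0.00300. The red cell gene Alas2 (0.379 to 1.24 FPKM) also had controls 1, 2 and 6 on top. The haemoglobin beta genes did not follow in control 2. Hbb-b1 stood at 11.6, 0.0275, 3.82, 2.83, 2.50 and 2.98 FPKM and Hbb-b2 at 2.64, 0.262, 0.582, 0.812, 0.115 and 1.34.

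Control 1 also differed from the other mice by transcript length. Lengths were found for 6268 members (96.4%). For transcripts of at most 300 bases (24 genes) control 1 stood 3.12-fold above the median of the other mice, for those of 1000 to 2000 bases (999 genes) 1.38-fold and for those over 8000 bases (435 genes) 0.98-fold. The correlation across genes between log2 length and the deviation of a mouse from the mean was -0.41 in control 1 and between 0.07 and 0.20 in the other 5. Scaling by the median ratio over members lowered control 1 by 1.17-fold. Its higher values for short genes such as Mylpf, Pvalb and the respiratory chain and its lower value for the long Ryr1 run with this trend. The part of length and of connective tissue in the values of control 1 was not tested.

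**Figure D4:**
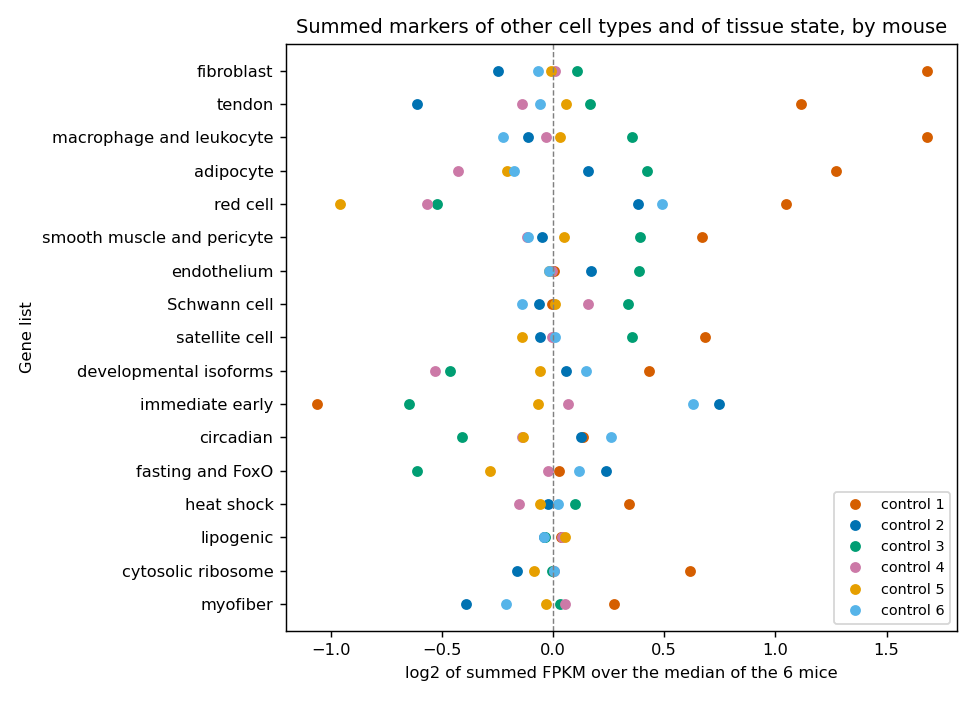
Summed FPKM of each gene list in each mouse, relative to the median of the 6 mice, on a log2 scale. Control 1 stands above the other mice for fibroblast (900 FPKM), tendon (60.4) and macrophage (30.5) markers, and immediate early genes are lowest in control 1 (50.6) and highest in control 2 (178).

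Immediate early genes, which respond to a stimulus within minutes, differed widely between the mice. The 18 genes of the list summed to 50.6, 178, 67.5, 111, 101 and 164 FPKM in controls 1 to 6. Of these genes 12 were highest in control 2 and 11 lowest in control 1, which held for 3.72% and 10.04% of all members. Fos, a subunit of the AP-1 transcription factor, stood at 1.02, 32.4, 4.87, 6.36, 11.2 and 5.80 FPKM, and Jun at 7.52, 21.8, 13.9, 12.0, 14.3 and 13.2. The orphan nuclear receptors Nr4a3 and Nr4a1, which rise after muscle contraction, had their peak in another mouse: Nr4a3 stood at 6.87, 17.8, 2.1, 20.2, 5.83 and 56.5 FPKM and Nr4a1 at 4.97, 16.5, 5.78, 18.7, 14.4 and 37.4. Control 6, with both at their highest, also had the highest Ppargc1a (the mitochondrial coactivator PGC-1 alpha), at 28.9 FPKM against 6.54 to 10.7, and the highest Trim63 (the ubiquitin ligase MuRF1), at 77.5 FPKM against 24.5 to 40.0. Slc25a25, a calcium-regulated mitochondrial carrier, peaked in control 4 instead, at 28.1 FPKM against 3.15 to 12.6.

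A number of clock genes set control 3 apart. Of the 16 circadian genes above 0 in all mice 11 were lowest in control 3, against 5.87% of all members. Dbp, an output of the clock, stood at 11.2, 10.4, 1.90, 3.99, 3.75 and 9.03 FPKM. Nr1d1, a repressor of the clock, stood at 5.22, 8.50, 1.62, 1.36, 1.66 and 8.02 and was lowest in control 4. Both were highest in controls 1, 2 and 6, the mice that were also on top for Myh2 and Csrp3. Arntl, the activator that cycles in the opposite phase, stood at 0.926, 1.37, 7.84, 2.1, 1.89 and 0.851 FPKM, with Clock (5.91 against 2.64 to 3.47) and Cry1 (3.87 against 1.42 to 2.15) also highest in control 3. The labels do not give the hour of collection. Of the 21 fasting and FoxO genes 9 were lowest in control 3. The inducible chaperones Hspa1a (5.82 against 0.298 to 2.09) and Hspa1b (7.95 against 0.455 to 2.87 FPKM) were highest in control 5, whereas the most abundant heat shock gene, Hsp90ab1, was even at 167 ± 26.0. Genes listed as lipogenic were low in all mice, with Acaca at 0.503 ± 0.0711 and Fasn at 0.489 ± 0.143 FPKM. The highest of the list was Acacb, the muscle acetyl-CoA carboxylase, at 9.06 ± 1.43.

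Of 13 listed genes of immature or denervated muscle 7 had a mean under 1 FPKM. The members among them were 4, against 27.2% of all genes. The fetal acetylcholine receptor subunit Chrng reached at most 0.0757 FPKM. Tnnt2 (0.529 ± 0.193) and Ncam1 (0.833 ± 0.143) were below 1 FPKM on average. H19 (279 ± 97.0) and Actc1 (186 ± 53.3) were far higher, whereas the members Myh8 and Igf2 (a fetal growth factor, 3.47 ± 0.686) stood at a few FPKM. Adult genes exceeded developmental ones in every mouse in the 4 of 6 pairs that gave a ratio, with a median mean log2 of 10.6. Cytosolic ribosomal protein genes were incompletely read: 27 of 48 listed genes were members, and genes such as Rps29 and Rpl27 were listed at 0 in most mice. Many of them have near-identical copies, for which reads had been discarded, and the part of that step was not tested. The 48 genes summed to 828 FPKM in control 1 and 483 to 542 in the others.

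Variation between the 6 mice was modest for most members. The CV had a median of 17.6% (quartiles 12.4% and 24.6%) and ran from 1.62% to 130%. It fell little with level, from a median of 18.3% for means of 1 to 2 FPKM to 14.7% for means of 100 FPKM or more. Of all members 912 had a CV under 10% and 175 a CV over 50%. Control 1 was the highest mouse for 150 of these 175, against 50.6% of all members. Without control 1 the median CV was 14.0% and 47 members exceeded 50%. Contractile genes had a median CV of 18.9%, metabolic genes 15.9% and calcium-handling genes 14.8%, which became 15%, 9.44% and 11.7% without control 1. For 35 of the 58 contractile genes the CV was above the median CV of the 200 members closest in mean, for 90 of the 181 metabolic and for 18 of the 47 calcium-handling genes.

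**Figure D5:**
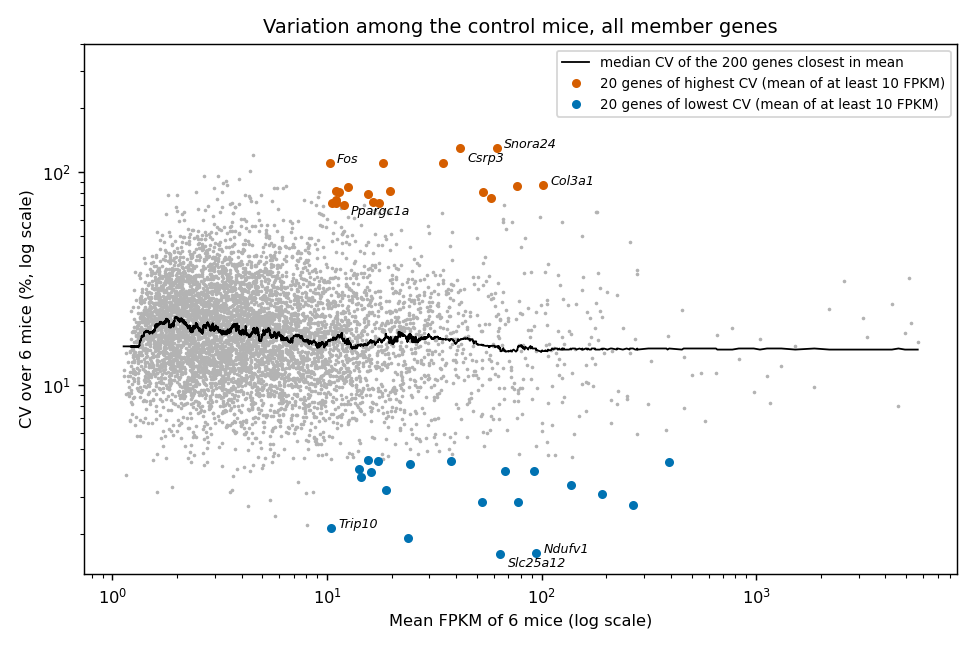
CV over the 6 mice (%) against mean FPKM for the 6505 genes, both on log axes, with the median CV of the 200 genes closest in mean as a line. The 20 genes of highest CV (70.4% to 130%) and of lowest CV (1.62% to 4.45%) among those with a mean of at least 10 FPKM are coloured.

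The genes of lowest CV included several of mitochondria. Among 1360 members with a mean of 10 FPKM or more the lowest CV was that of Slc25a12, the aspartate-glutamate carrier of the inner membrane, at 64.0, 64.1, 65.8, 64.1, 62.6 and 64.6 FPKM (1.62%). Ndufv1 followed at 94.3 ± 1.53 FPKM (1.63%) and Trip10 at 10.5 ± 0.224. Vdac1, Immt, Idh3g and Pdha1, all of mitochondria, were among the 20 lowest, as were the growth hormone receptor Ghr, the irisin precursor Fndc5, Adssl1 and Pfkm. The 20 were chosen as the lowest of many, and after scaling each library by its median ratio their CV was 7.09% to 12.4%. Without control 1 the CV of these 20 lay between 1.56% and 4.90%.

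The 20 most variable genes of the same level fell into few kinds. Collagens and matrix genes of fibroblasts (Col3a1, Col5a2, Dpt, Lum and Fstl1) were high in control 1 only, and without it Col5a2 and Fstl1 had a CV of 11.5% each. Small non-coding RNAs made up 5 of the 20, led by Snora24 at 223, 16.8, 53.7, 48.4, 7.65 and 22.4 FPKM (130%, and 67.8% without control 1). Activity genes (Fos, Nr4a3, Nr4a1, Slc25a25 and Ppargc1a) and the stretch genes Csrp3 and Ankrd2 varied among the other mice as well: without control 1 the CV of Nr4a3 was 105%, of Fos 95.7% and of Ppargc1a 75.2%. In 15 of the 20 control 1 was highest, against 50.6% of all members, and 11 had a CV under 50% without it. Gdpd3, picked after its values had been seen, was no member because of 1 mouse: it stood at 0.113 FPKM in control 6 and 3.01 to 9.74 in the others.

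At the threshold the members with the smallest minimum were Zfp612 (1.0002 FPKM), Mdn1 (1.0002) and Ern1 (1.0005), and the genes just outside were Ctnnbl1 (0.99938), Stk3 (0.99936) and Stam2 (0.99928). Of the genes outside the set 7066 were listed at 0 in all 6 mice and 2345 reached 1 FPKM in at least 1 mouse but not in all.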

How the data were processed

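The tibialis anterior of 6 control mice was analysed, 1 library each. From 100 ng of total RNA the authors removed ribosomal RNA (ScriptSeq Complete Gold kit) and aligned the trimmed reads allowing at most 2 mismatches. They dropped multi-mapped reads and deposited 1 FPKM per gene symbol. The submitters' processing notes name TopHat2 2.0.10, Cufflinks 2.1.1 and the build mm9. The annotation is not given in the sources used here. The files hold FPKM and no counts, so no count test was possible.

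Of 23950 rows per file 27 carried a date as symbol and were dropped. Members were genes with FPKM of at least 1 in all 6 controls. Shares are list sums over the member FPKM sum of a mouse. Ratios were taken per mouse with no pseudocount. CV is SD over mean of FPKM as deposited. The Smyd1 CKO libraries entered no calculation, and the labels name no separate batches. Nothing in the labels states that the 6 muscles came from separate litters, so the spread is that between these samples.

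Relative depth was taken from the ratio shared by most genes between libraries below 0.15 FPKM. Fragment numbers came from 207 low genes with 1 annotated transcript and its length in GENCODE M21, of which 109 gave a value within 1% of the median. They are estimates, and intervals from them cover counting error only. Gene lists of contractile, metabolic and calcium-handling function, of 12 cell types and of states were written by hand. The members and lists were chosen with earlier results of these data known. The named genes are the 25 highest by mean, the 3 highest of each list, both genes of each pair, the 20 highest and 20 lowest by CV among means of at least 10 FPKM, those at the threshold, those listed at 0 in a control and at 10 FPKM or more in another, and the 5 most like Tnnt1. Other genes of the lists are named as examples, and genes said to be picked after their values had been seen lie outside this rule. A few genes that the rule selects are not reported here.

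Correlations over mice used exact permutation of 720 pairings (scipy 1.17.1), two-sided, with Benjamini-Hochberg adjustment over 7 relations. The calculations ran in Python 3.11.15 with pandas 2.3.3 and numpy 2.4.6 and were tested on simulated data. Alternatives were other FPKM minimums, other denominators, pseudocounts of 0.1 and 1, median-ratio and equal-sum scaling, a robust CV and leaving out each mouse.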

Additional observations from a re-analysis of the deposited data

Results flagged for a closer look

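For 48 of 234 quantities named in the text, 1 mouse lay farther from the nearest other mouse than Dixon's criterion for 6 values allows. Chance gives this for about 1 in 20 groups, many of the quantities are not independent of one another, and a number of the genes were chosen for their spread. Control 1 was the mouse apart in 29 of the 48, on the high side in 28.

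Among sums of gene lists control 1 was high for the respiratory chain (10972 FPKM), calcium buffers, entry and extrusion (4417 against 2036 to 2890), fibroblast (900.2), tendon (60.4), macrophage and leukocyte (30.5), adipocyte (308) and cytosolic ribosome genes (828). Among matrix and fat genes it was high for Col3a1 (282 FPKM), Col5a2 (27.0), Dpt (34.0), Fstl1 (40.8), Lum (25.8) and Fabp4 (305). Among genes of the fibre it was high for Mylpf (8321 FPKM), Pvalb (4055), Tpm2 (1362), Cox7a1 (316), Cox7a2 (55.7), Csrp3 (147), Ankrd2 (109), Sln (5.69), Calr (45.7), Idh1 (13.3) and Myh3 (1.81). The small RNAs Snora24 (223), Rpph1 (411) and Rmrp (417) and the threshold gene Stam2 (2.15) were high in it too. The log2 ratio of Atp2a1 over Atp2a2 was low in control 1, at 7.24 against 8.0 to 8.18. The parts of transcript length and connective tissue in these values were not tested.

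In control 2 Fos (32.4 FPKM) and Pdk4 (140) were high, and Slc8a3 (6.62 against 7.64 to 7.94) and the log2 ratio of Ldha over Ldhb (4.50 against 4.97 to 5.2) were low. In control 3 the clock genes Arntl (7.84), Clock (5.91) and Cry1 (3.87) were high, as were Myom1 (193 against 148 to 160), Rps29 (0.376 FPKM, listed at 0 in the other mice) and the log2 ratio of Myl1 over Myl3 (8.22 against 6.16 to 6.63). In that ratio it was the slow light chain Myl3 that was low in control 3, at 9.96 FPKM against 22.1 to 26.6. In control 4 the slow troponin Tnni1 was high at 0.904 FPKM, against 0.140 to 0.318, and Xist at 0.109. In control 5 the chaperones Hspa1a (5.82) and Hspa1b (7.95) were high. In control 6 Hk2 (94.3), Nr4a3 (56.5), Ppargc1a (28.9), Trim63 (77.5) and Cs (112 against 95.7 to 102) were high.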

How the results depend on the processing

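No paired analysis was possible because no groups were compared: the replicate numbers that controls share with the other mice of the series name samples and no result here comes from a test between groups. Raising the minimum from 1 to 5 FPKM left 2166 members and raised the contractile share to 38.6%, the metabolic share to 21.1% and the calcium-handling share to 5.63%, since fewer genes make up the sum. Over the FPKM sum of all genes the metabolic share was 18.1%. A pseudocount of 1 lowered the median log2 fast to slow ratio to 8.44, since it adds to the slow genes. The median CV was 14.8% after median-ratio scaling, 15.1% with equal sums, 13.7% from the median absolute deviation and 15.4% at a minimum of 5 FPKM.

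Leaving out 1 mouse at a time gave 6556 to 6646 members, contractile shares of 33.9% to 34.5%, metabolic shares of 18.7% to 18.9%, calcium-handling shares of 4.96% to 5.08%, a median log2 ratio of 8.96 to 9.24 and a median CV of 14.0% to 18.3%, lowest without control 1. Of the 7 correlations, that of immediate early with heat shock genes, r = -0.59 (exact permutation p = 0.229, adjusted p = 0.802; rho = -0.54, p = 0.297, adjusted p = 0.520; r = -0.96 without controls 2 and 6), turned to 0.29 after median-ratio scaling, and that of the slow index with the respiratory chain share turned to 0.57 without controls 3 and 4. The cause was not tested. For the 40 genes chosen by CV, 65 of 280 alternative CV differed from the value given by more than the SD of the 6 CV with a mouse left out. The depth limits ratios whose slow gene rests on a few fragments.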

Other observations

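Some abundant or variable genes lay outside the lists and were picked after their values had been seen. Car3, the carbonic anhydrase of muscle and fat, stood at 296, 516, 438, 476, 393 and 588 FPKM in controls 1 to 6, lowest in control 1 and highest in control 6. The small structured RNAs Rpph1 and Rmrp, the RNA subunits of RNase P and RNase MRP, stood at 411 and 417 FPKM in control 1 and at no more than 194 and 161 FPKM in the other mice. Nnt, the mitochondrial transhydrogenase, stood at 6.36 ± 1.33 FPKM and was present in every mouse, from 4.91 to 7.88. Without control 1 the 20 most variable members with a mean of at least 10 FPKM shared 9 genes with the 20 over all 6 mice. Among those that entered were Pdk4 (CV of 62.2% over 5 mice), Trim63 (54.2%), Lmod2 (56.6%) and Myh2 (55.3%).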
